A study of Homo sapiens with 20 samples.

Results

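Numbered zinc-finger genes are the human genes whose symbol is ZNF followed by a number. RNA-seq counts were examined for the 96 of them, of 562 in the count tables and 57773 genes in all, whose reads summed to at least 3000 over the 20 deposited columns. ZNF644, a known partner of EHMT1, was left out of the set. They were chosen by the total count over all conditions, with earlier results of these data known. ZNF841 (3019 counts) and ZNF623 (3024 counts) lay just inside the limit, and ZNF43 (2983) and ZNF75D (2974) just outside it.

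The samples were LNCaP cells, a human prostate adenocarcinoma line. In the first experiment LNCaP cells were transfected for 2 days at 20 nM, in 2 samples each, with pooled siRNA to EHMT1 (siEHMT1) or with nontarget siRNA (siNTC). In the second, 4 stable LNCaP-tet-EHMT1 lines carried a lentiviral, doxycycline-inducible EHMT1 open reading frame, either wild type (WT) or with 1 or both of a pair of adjacent lysines changed to arginine (K450R, K451R, K450RK451R), and were left untreated (Veh) or given 0.25 µg/mL of doxycycline for 2 days (Dox). The parental cells keep their own EHMT1 gene in every line, and the lines were selected with puromycin, so each Dox comparison adds EHMT1 to cells that already make it. A line without the insert given doxycycline was not analysed here, so the drug and the induced protein cannot be told apart.

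EHMT1, also called GLP, and its partner EHMT2 place mono- and dimethyl marks on lysine 9 of histone H3. Zinc-finger genes of the Cys-His type form the largest family of human transcription factors, and many sit in clusters on chromosome 19. KRAB members of the family are known to bind DNA through their fingers and recruit TRIM28 and the methyltransferase SETDB1, which places the trimethyl form of the same lysine mark, often over retrotransposons. The family's own genes are also covered by this mark at their coding ends, where ZNF274 binds.

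EHMT1 itself followed the labels. In CPM, counts scaled to library size by TMM, it stood at 87.8 and 83.6 in the siNTC samples and at 29.2 and 30.7 in the siEHMT1 samples, a log2 fold change of -1.51. In the lines it stood at 71.7 to 88.9 CPM with Veh and 663 to 842 CPM with Dox, and these reads include the introduced frame. The siRNA samples held 5593400 to 12438006 counts and the stable-line conditions 8436791 to 12407739. The 2 columns of each stable-line condition differed by no more than counting noise (chi-square per degree of freedom 0.995 to 1.02) and were summed to 1 sample, so a single line has no replicate of its Dox response. The siRNA pairs did differ beyond counting noise (61.6 for siNTC and 13.4 for siEHMT1), and nothing in the labels says whether they were separate cultures. All 10 luminal prostate markers listed were measured, KLK3 at a mean of 3037 CPM in siNTC, while the basal keratin KRT14 had a mean of 0.537 CPM and the fibroblast collagen COL1A1 16.4 CPM.

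All 96 genes passed the filter on low counts in both experiments. Of the 95 with a position on GRCh37, 37 lay on chromosome 19. The coding sequence could be translated and scanned for 93, and 43 of these held a KRAB pattern, 27 of them on chromosome 19. The pattern is a text search and misses some, such as ZNF445, whose KRAB domain is known. At least 6 fingers were found in 69. ZNF252P and ZNF542 are annotated as pseudogenes, and ZNF259 is an older name of ZPR1, which is not a member of the Cys-His family. Reads of near-identical family members could be shared, so single values of close paralogs are uncertain.

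Per length, the set covered a wide range of levels. ZNF511 was highest in siNTC at 44.4 RPKM (CPM divided by exon length in kilobases), followed by ZNF32 at 39.6 and the pseudogene ZNF542 at 34.8, and the lowest were ZNF292 at 0.893 and ZNF445 at 1.76. The median was 5.75 RPKM in siNTC and 5.64 RPKM over the 4 Veh lines. By total count the leading genes were ZNF217, a transcription factor that works with the CoREST and LSD1 corepressor, with 24198 counts, ZNF24 with 19628, ZNF511 with 16622, ZNF106, an RNA-binding protein, with 16378, ZNF664 with 15504, ZNF395 with 14609, ZNF207, a spindle and kinetochore protein, with 14152, and ZNF146, a protein made almost wholly of fingers, with 11666. Untreated levels were close among the lines: the highest of the 4 Veh levels exceeded the lowest by a median factor of 1.19, and by 1.59 at most (ZNF841).

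Some genes, picked out after their values were seen, stood at different levels in the siRNA experiment and in the lines. ZNF395 measured 30.2 and 39.3 CPM in siNTC but 164 to 195 CPM in the 4 Veh lines. ZNF512B, which binds the NuRD corepressor, went the other way, with 50.4 and 54.4 CPM in siNTC and 8.95 to 13.0 CPM in Veh. The experiments differ in cells, treatment and libraries, which cannot be told apart here, and their counts were filtered and scaled separately.

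The nuclear RNAs listed differed between the siRNA samples. MALAT1, a long RNA kept in the nucleus, measured 785 and 964 CPM in siNTC and 788 and 1667 CPM in siEHMT1. NEAT1 measured 223 and 299 CPM against 257 and 511 CPM, so siEHMT1 replicate 2 was highest in both. Of the 6 nuclear or short-lived transcripts listed, 3 were higher and 0 lower in siEHMT1 at an unadjusted p under 0.05 (median 0.35). Over all genes tested 4.46% were higher and 5.09% lower. Without that replicate, the set had a median log2 fold change of -0.09. The part of these RNAs in the siRNA result was not tested.

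Silencing EHMT1 left no gene of the set past an adjusted p of 0.05, whereas 0.131% of the 14532 genes tested passed (edgeR quasi-likelihood, Benjamini-Hochberg). DESeq2 and limma-voom also called 0. A fit that leaves out 1 siRNA sample has 1 sample in a group, which is assumed to vary like the pair of the other group. Only the log2 fold changes of such fits are given here. At an unadjusted p under 0.05, 10 of the 96 were lower in siEHMT1 and 1 was higher, beside 5.09% lower and 4.46% higher over all genes. None passed 2-fold with that p (1.28% of all genes), and the log2 fold changes ran from -0.52 to 0.32, with 2 past 0.5 in size beside 9.22% of all genes. The set was chosen by count, and all genes include many with fewer counts, whose values spread more. Numbered ZNF genes under 3000 counts ran from -1.56 to 1.02. Shares by size, here and with Dox, are thus not like for like. DESeq2 gave 6 lower and 0 higher, where 526 of all 14532 genes tested passed in either direction.

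The set leaned to lower levels without a single large change. The log2 fold change was negative for 61 of 96 genes, beside 50.4% of all genes, and its median was -0.07 beside -0.002 over all genes tested. Leaving out 1 sample moved that median between -0.09 (without siEHMT1 replicate 2) and -0.03 (without siEHMT1 replicate 1). Summed over the set, the level was 4549 and 4642 CPM in siNTC and 4280 and 4511 CPM in siEHMT1, so the siEHMT1 samples lay just below the controls. The siEHMT1 and siNTC values did not overlap for 27 genes in the lower direction, where 19.8% of all genes met the same rule, and for 15 in the higher direction, where 19.9% did.

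**Figure D1:**
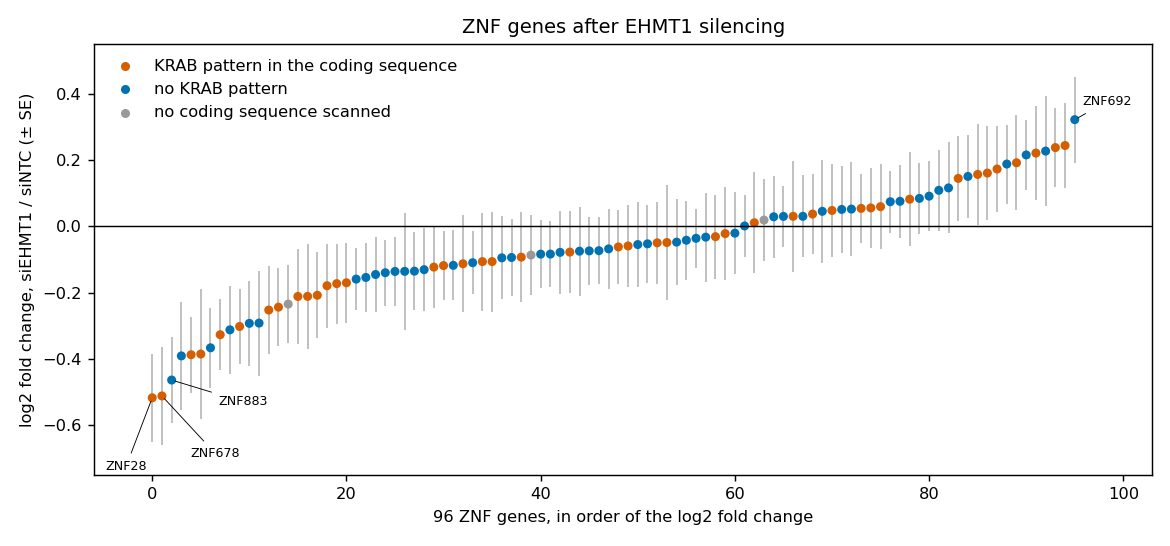
Log2 fold change of siEHMT1 over siNTC (y axis) with its standard error for each of the 96 genes, ordered by value (x axis) and coloured by the KRAB pattern. Values run from -0.52 (ZNF28) to 0.32 (ZNF692), and 61 of 96 lie below 0, with KRAB and other genes mixed along the order.

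Among the genes lower in siEHMT1, ZNF28 (chr19:53300661-53360853, a KRAB gene on the minus strand) came first. It measured 37.3 and 45.1 CPM in siNTC and 26.4 and 30.9 CPM in siEHMT1. The siEHMT1 samples lay below both controls, and the log2 fold change was -0.52 ± 0.13 (SE) with an unadjusted p of 0.000966 and an adjusted p of 0.158 by edgeR. On leaving out 1 sample its log2 fold change ran from -0.651 to -0.379. ZNF678 on chromosome 1, another KRAB gene, measured 29.5 and 35.8 CPM in siNTC and 20.4 and 25.2 CPM in siEHMT1. Its log2 fold change was -0.51 ± 0.15 with an adjusted p of 0.2145 by edgeR, and ran from -0.674 to -0.37 on leaving out 1 sample. ZNF883 on chromosome 9, without a KRAB pattern, lay in the same range, at 36.2 and 35.0 CPM against 27.5 and 24.2 CPM (-0.46 ± 0.13).

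ZNF274, the KRAB and SCAN-domain factor that brings SETDB1 to zinc-finger genes, measured 53.5 and 49.0 CPM in siNTC and 37.6 and 40.8 CPM in siEHMT1. Its log2 fold change was -0.39 ± 0.11, with an unadjusted p of 0.00298 and an adjusted p of 0.227. ZNF91, a KRAB protein known to bind SVA retrotransposons, measured 69.6 and 87.2 CPM in siNTC and 60.7 and 66.2 CPM in siEHMT1 (-0.30 ± 0.11). Its groups did not overlap, though without siNTC replicate 2 the value was only -0.14. ZNF562, a KRAB gene of the cluster on the short arm of chromosome 19, measured 62.3 and 69.0 CPM against 51.04 and 53.4 CPM (-0.33 ± 0.11).

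The others had no KRAB pattern. ZNF740 measured 40.8 and 39.5 CPM in siNTC and 31.8 and 30.5 CPM in siEHMT1 (-0.37 ± 0.12), and ZNF787 measured 30.8 and 29.5 CPM against 24.8 and 23.7 CPM (-0.31 ± 0.13). In both, the replicates of a group lay closer together than the groups did. ZNF770 measured 44.9 and 59.5 CPM against 44.3 and 40.6 CPM (-0.29 ± 0.13), where siNTC replicate 1 nearly met the silenced samples and the value was -0.08 without siNTC replicate 2. ZNF395, known as a factor induced by low oxygen, measured 30.2 and 39.3 CPM against 21.6 and 31.1 CPM (-0.39 ± 0.16). Its groups overlapped. Its value was -0.19 without siNTC replicate 2, -0.16 without siEHMT1 replicate 1, and -0.68 without siEHMT1 replicate 2.

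ZNF692 was the one gene higher in siEHMT1 at an unadjusted p under 0.05. It measured 33.2 and 32.4 CPM in siNTC and 36.3 and 45.6 CPM in siEHMT1, a log2 fold change of 0.32 ± 0.13 with an adjusted p of 0.431 by edgeR. Without siEHMT1 replicate 2, the higher of the pair, it was 0.15.

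**Figure D2:**
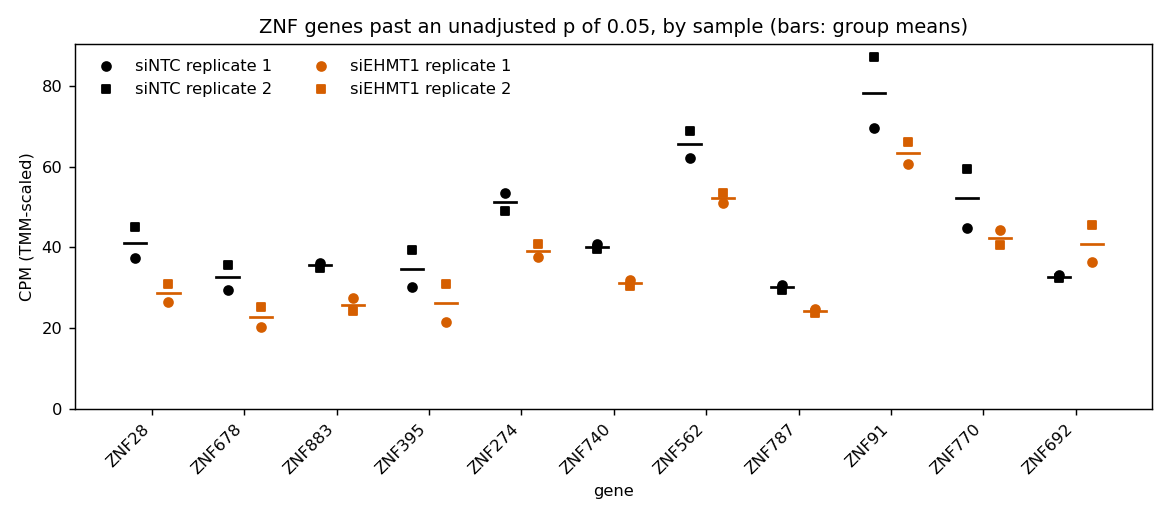
TMM-scaled CPM (y axis, from 0) of the 11 genes past an unadjusted p of 0.05 (x axis) in each siNTC and siEHMT1 replicate, with bars at the group means. Every gene but ZNF395 has its groups apart, with a wide gap for ZNF562 (62.3 and 69.0 against 51.04 and 53.4) and a narrow one for ZNF770.

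The start-site sequences of 5 of these lower genes are given, chosen because they hold 1 of a pair of motifs described here, while ZNF562, ZNF770 and ZNF883 hold neither. They are the 200 bases before the RefSeq start, taken from the GRCh38.p14 table and placed on GRCh37 by an exact and unique match, at chr19:58694228-58694427 and chr12:53574306-53574505 on the plus strand, chr19:56632665-56632864 on the minus strand, chr1:227751057-227751256 on the plus strand and chr19:23578274-23578473 on the minus strand. Capitals mark CCGGAAGT, the core bound by ETS factors, or its reverse complement ACTTCCGG in the first 3, and CCAATCAG, which holds the CCAAT box, in the last 2.
ZNF274: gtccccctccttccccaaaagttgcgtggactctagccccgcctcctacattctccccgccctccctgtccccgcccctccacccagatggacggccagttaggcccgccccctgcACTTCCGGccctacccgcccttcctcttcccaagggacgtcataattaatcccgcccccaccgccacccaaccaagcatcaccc
ZNF740: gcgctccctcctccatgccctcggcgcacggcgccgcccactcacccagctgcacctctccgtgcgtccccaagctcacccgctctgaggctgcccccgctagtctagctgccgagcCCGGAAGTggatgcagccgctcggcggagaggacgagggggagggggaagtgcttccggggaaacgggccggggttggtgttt
ZNF787: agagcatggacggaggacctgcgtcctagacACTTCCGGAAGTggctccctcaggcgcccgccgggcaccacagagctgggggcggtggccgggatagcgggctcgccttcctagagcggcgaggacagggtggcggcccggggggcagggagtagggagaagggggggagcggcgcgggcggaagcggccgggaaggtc
ZNF678: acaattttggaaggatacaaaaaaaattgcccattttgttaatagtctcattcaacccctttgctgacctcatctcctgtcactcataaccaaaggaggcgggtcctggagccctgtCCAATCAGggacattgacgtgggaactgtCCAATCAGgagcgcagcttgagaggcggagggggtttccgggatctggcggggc
ZNF91: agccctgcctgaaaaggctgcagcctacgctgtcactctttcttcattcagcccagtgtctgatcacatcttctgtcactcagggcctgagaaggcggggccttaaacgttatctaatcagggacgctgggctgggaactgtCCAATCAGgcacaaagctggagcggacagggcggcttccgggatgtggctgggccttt

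A start-site window of 300 bases, 250 before and 50 after the start, was found for 85 of the 96 genes and was searched on both strands. CCGGAAGT or its reverse complement was present in 14 of the 85 (16.5%), beside 4.95% of 27305 genes of the RefSeq table. Of the 10 lower genes 8 had a window, and ZNF274, ZNF740 and ZNF787 held it, in ZNF787 as overlapping copies on both strands. CCAATCAG, searched because it appeared in the printed windows, was present in 12 of 85 (14.1%) beside 4.75% of all. Of its 12 holders 10 were among the 39 KRAB genes with a window. The motif was picked from windows of the set, so its share there was favoured in advance and is no test. CACGTG, the E-box, was present in 7 of 85 beside 8.77% of all, the NRF1 core palindrome in 4 of 85 beside 1.52%, and the core bound by YY1 in 1 of 85 beside 1.04%. ZNF678 and ZNF91 lie on different chromosomes and shared an unbroken run of 19 bases, tgggaactgtccaatcagg, that began 64 and 68 bases before their starts. No other pair was searched in this way. ZNF714, not among the lower genes, shared a longer run with ZNF91, ctgatcacatcttctgtcactcagggc, and also held CCAATCAG. Such runs are thus not particular to the lower genes. The table also holds many genes that LNCaP cells do not express, and a match of letters is not a bound site.

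KRAB genes and the others gave like counts after EHMT1 silencing. Of the 43 KRAB genes 5 were lower and 0 higher at an unadjusted p under 0.05, with a median log2 fold change of -0.06. Over all genes tested 5.09% were lower and 4.46% higher. Of the 50 without it 5 were lower and 1 higher, with a median of -0.06. The 37 genes on chromosome 19 had a median of -0.11 with 26 negative, and the 58 elsewhere a median of -0.05 with 35 negative. Negative values made up 50.4% of all genes tested and 61.7% of those with a GC content under 45%. The difference between the subsets was not tested. In the stretch chr19:52467593-54083523 lie ZNF350, ZNF615, ZNF841, ZNF766, ZNF83, ZNF28, ZNF468, ZNF320, ZNF160 and ZNF331, and 9 of these 10 were negative (median -0.16), with ZNF83 at 0.01 the exception. In the stretch chr19:57702868-58788861, by contrast, 4 of 9 were negative (median 0.03), and ZNF274 at -0.39 was the lowest of them.

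The siRNA values moved with base composition. Exon GC content of the set ran from 34.6% to 68.8% with a median of 45.3%, beside 47.7% over all genes tested. Among the 46 genes with a GC content under 45%, 37 were negative (median -0.12, 6 lower and 0 higher at an unadjusted p under 0.05). Among the 49 at or above 45%, 24 were negative (median 0.01, 4 lower and 1 higher). All 5586 genes tested with a GC content under 45% also leaned negative, with 61.7% negative, 8.13% lower, 3.04% higher and a median of -0.06. Of the 8674 at or above it 43.3% were negative, 3.23% lower and 5.37% higher, with a median of 0.03. Spearman's rho of the log2 fold change with GC content was 0.37 over 95 genes of the set and 0.19 over 14260 genes, each a description over genes that share the same 4 libraries. With a GC correction within the fit the set had 10 lower and 2 higher genes and a median of -0.05.

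**Figure D3:**
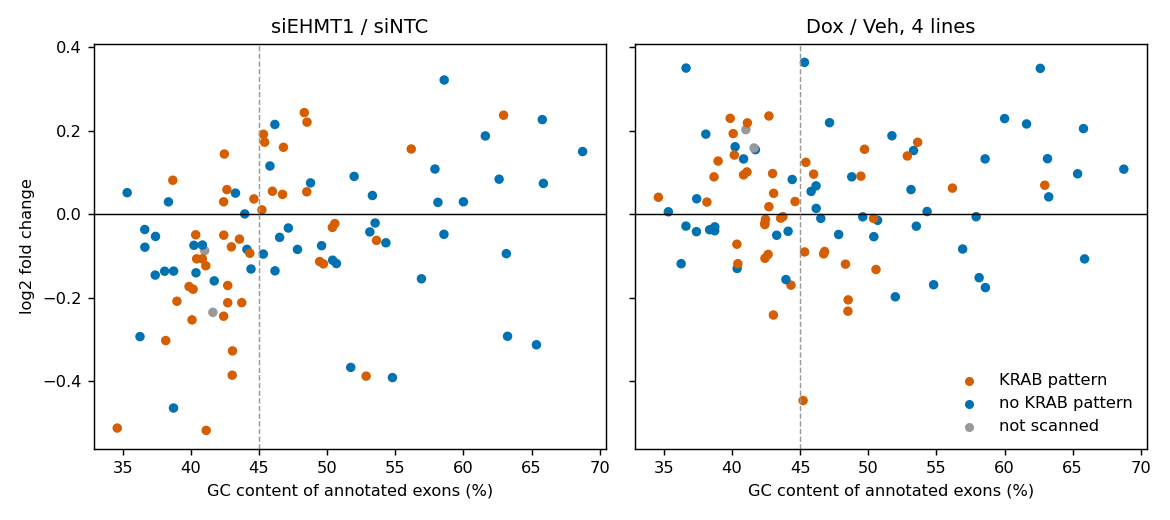
Log2 fold change (y axis) against GC content of the annotated exons (x axis, percent) for siEHMT1 over siNTC (left) and for Dox over Veh across the 4 lines (right), coloured by the KRAB pattern, with a dashed line at 45%. On the left 37 of 46 genes under 45% lie below 0, and on the right 21 of 46 do.

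Genes with known roles in chromatin showed small differences on silencing. Of the 9 genes of the set listed as partners of corepressors or chromatin complexes, only ZNF274 passed an unadjusted p of 0.05. ZNF462, a heterochromatin factor, had a log2 fold change of 0.22 ± 0.11 (65.3 and 57.3 CPM in siNTC, 69.8 and 72.7 CPM in siEHMT1), which ran from 0.126 to 0.313 on leaving out 1 sample. ZNF217 was at 0.00 ± 0.09, with 146 and 136 CPM against 132 and 149 CPM. ZNF592 (0.09), ZNF687 (0.11) and ZNF532 (-0.14), which bind ZMYND8, ZNF512B (0.08), ZNF652 (-0.07) and ZNF335 (0.03) also stayed within 0.14 of 0. Over the whole list of such ZNF genes, including those under 3000 counts, 2 of 15 tested were lower and 0 higher, the second being ZNF703, with a median of -0.01.

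Factors bound at promoters, ZNF143 (0.05), ZNF148 (-0.05) and ZNF384 (-0.02), lay within 1 standard error of 0. The genes whose proteins act on RNA, ribosomes or other proteins were close to 0 as well. ZNF598, which marks collided ribosomes, was at 0.07, ZNF622, a maturation factor of the large ribosomal subunit, at -0.04, ZNF207 at -0.04, ZNF106 at -0.08, ZNF638, which silences foreign DNA, at -0.14, and ZNF451, a SUMO ligase, at -0.15. The standard errors of these 6 lay between 0.09 and 0.12. With those under 3000 counts, 0 of 10 genes listed for RNA or ribosomes and 0 of 7 listed as promoter factors passed in either direction. ZNF445, which guards imprinted loci, was at -0.03 ± 0.13. All 6 genes listed for retrotransposons or imprinting were negative (median -0.21), but ZNF93, ZNF10, ZNF649 and ZNF765 had under 3000 counts. Of the list 1 was lower, ZNF91, and 0 higher at an unadjusted p under 0.05. All but ZNF445 had a GC content under 45%, where 61.7% of all genes were negative.

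The corepressor that KRAB proteins recruit was followed through a list of 16 genes of the TRIM28, SETDB1, HP1 and HUSH machinery. In siEHMT1 0 were higher and 3 lower at an unadjusted p under 0.05, beside 4.46% and 5.09% of all genes, with a median of -0.06. The lower genes were ATF7IP, the stabilizer of SETDB1 (-0.36), FAM208A, the core subunit of HUSH (-0.32), and the deacetylase HDAC2 (-0.21). Their exon GC contents were 39.0%, 38.5% and 36.5%. Of all genes under 45% GC, 8.13% were lower and the median was -0.06. The part of base composition here was not tested. TRIM28 itself was at -0.01 and SETDB1 at 0.10.

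Inducing EHMT1 gave small differences in both directions. Across the 4 lines, where each line's Dox and Veh samples were compared and the lines served as replicates, 1 gene passed an adjusted p of 0.05, beside 2.11% of 14105 genes tested. At an unadjusted p under 0.05, 8 were lower (7.55% of all genes) and 12 higher (6.86% of all genes), and none passed 2-fold (0.354% of all genes). The median was 0.02, beside 0.005 over all genes. In all 4 lines 11 genes were lower and 9 higher, near the 10.1% and 10.7% of all genes that met the same rule. DESeq2 gave 6 higher genes, where 1120 of all 14105 genes tested passed the unadjusted p in either direction. Without WT 5 genes passed the adjusted p, beside 501 of all 14210 genes tested. Without K450R or K451R 0 did, beside 122 of 14431 and 114 of 14132. Without K451R or K450RK451R 4 were lower at an unadjusted p under 0.05.

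ZNF83 (chr19:53097313-53193812, a KRAB gene of the chromosome 19 stretch that also holds ZNF28) was the gene that fell. It measured 35.4 CPM with Veh and 31.1 with Dox for WT, 32.9 and 21.7 for K450R, 32.5 and 23.2 for K451R and 26.6 and 18.1 for K450RK451R. Dox was below Veh in every line, with the smallest step in WT, and the level in WT with Dox still exceeded K450RK451R with Veh. The log2 fold change was -0.45 ± 0.10, with an adjusted p of 0.0112 by edgeR. The call was lost without K450R (adjusted p 0.116) or K451R (0.0709) and was kept without K450RK451R (0.0435) or WT (0.00253). In the siRNA samples ZNF83 had a log2 fold change of 0.01 ± 0.15, at 28.3 and 33.2 CPM in siNTC and 25.7 and 36.01 CPM in siEHMT1.

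Of the other 7 lower genes ZNF263, ZNF841, ZNF589 and ZNF160, all KRAB genes, were lower in all 4 lines. ZNF592 (-0.20), ZNF395 (-0.17) and ZNF217 (-0.16), without the pattern, were not. ZNF263, a KRAB and SCAN-domain factor, measured 90.7, 99.2, 76.1 and 71.4 CPM with Veh in WT, K450R, K451R and K450RK451R and 77.1, 80.6, 63.8 and 64.7 CPM with Dox. Its log2 fold change was -0.23 ± 0.07 with an adjusted p of 0.0602. ZNF841 measured 40.9, 35.4, 30.3 and 25.8 CPM with Veh and 35.2, 28.6, 26.4 and 21.8 with Dox in the same order (-0.24 ± 0.09). ZNF589 (-0.21 ± 0.09) and ZNF160 (-0.17 ± 0.07) were smaller, and their Dox effects ran from -0.34 to -0.03 and from -0.26 to -0.08 over the lines.

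The genes higher with Dox in all 4 lines had small steps too. ZNF772, a KRAB gene of chromosome 19, measured 41.4, 42.6, 41.5 and 38.8 CPM with Veh in WT, K450R, K451R and K450RK451R, and 45.8, 52.3, 48.6 and 46.8 CPM with Dox. Every Dox value lay above every Veh value, and the log2 fold change was 0.24 ± 0.08 with an adjusted p of 0.116. ZNF524 measured 38.2, 35.6, 34.2 and 34.4 CPM with Veh and 45.9, 40.1, 38.9 and 39.3 CPM with Dox (0.21 ± 0.08), again without overlap. ZNF646 (0.23 ± 0.08), ZNF672 (0.22 ± 0.08) and ZNF740 (0.19 ± 0.08) were higher in each line, although ZNF646 moved by only 0.01 in K450RK451R and ZNF740 and ZNF672 by 0.04 in WT.

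By the KRAB pattern, 5 of 43 KRAB genes were lower and 3 higher at an unadjusted p under 0.05, and of the 50 without it 3 were lower and 9 higher. Over all genes tested 7.55% were lower and 6.86% higher, and 48.85% had a negative value. The medians were 0.03 and 0.01, and the difference between the groups was not tested. Within the set, base composition showed no lean with Dox like that with siRNA. The medians were 0.02 under 45% GC and 0.04 at or above it, and Spearman's rho was -0.002 over 95 genes. Of all genes tested under 45% GC, 5.12% were lower and 6.66% higher with Dox, and 46.2% were negative. At or above 45% the shares were 9.12%, 6.95% and 50.5%. The 5 genes between ZNF524 and ZNF542 on chromosome 19 were all positive (median 0.13), whereas 6 of the 10 in the stretch with ZNF83 were negative (median -0.01).

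**Figure D4:**
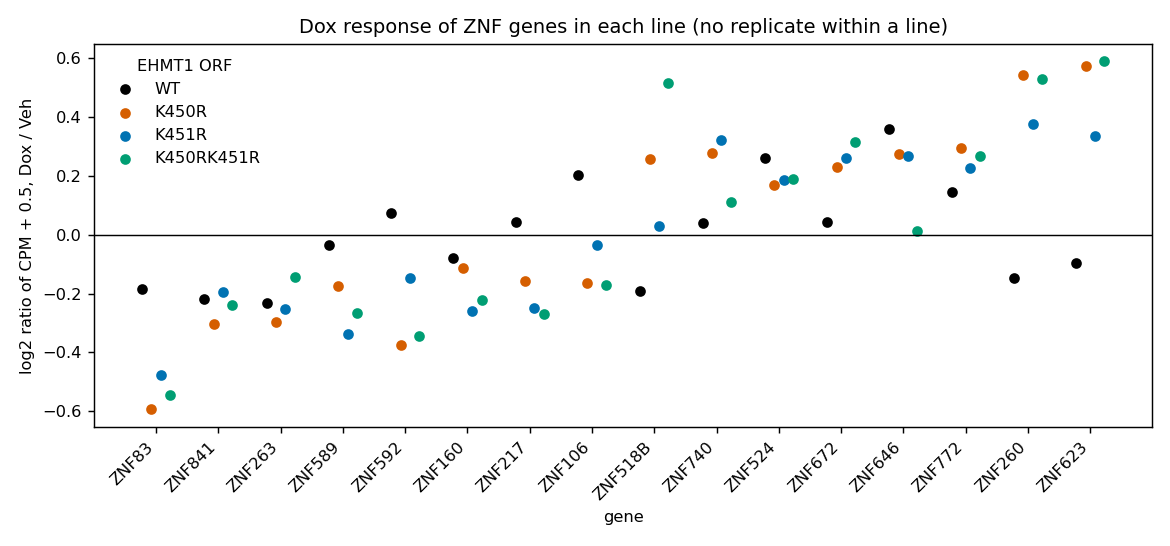
Log2 ratio of Dox over Veh (y axis, on CPM plus 0.5) in the WT, K450R, K451R and K450RK451R lines for 16 genes (x axis), the leading genes of the 4-line fit and those with the smallest p for a difference between mutant and WT lines. ZNF83 lies below 0 in every line, and ZNF260 and ZNF623 lie above 0 in the 3 mutant lines and below it in WT.

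Line by line, the set shifted little. The median log2 ratio was -0.03 in WT, 0.08 in K450R, -0.01 in K451R and 0.03 in K450RK451R, and no gene passed 2-fold in any line, beside 1.69%, 2.26%, 2.01% and 2.64% of all genes. Past 0.5 on the log2 scale were 0 genes in WT (11.7% of all genes), 3 in K450R (13.7%), 0 in K451R (12.4%) and 7 in K450RK451R (14.9%). All genes again include many with fewer counts than the set was chosen for, so the smaller shares of the set say little. In K450R the genes of the set past 0.5 were ZNF83, ZNF260 and ZNF623. In K450RK451R they were the same 3 genes and ZNF512B, ZNF587, ZNF518B and ZNF33A, chosen for naming after their values were seen. Across the 96 genes the responses of the mutant lines had Pearson correlations of 0.44 to 0.49 with one another and of -0.07 to 0.23 with WT, as a description over genes that share libraries and depth.

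Whether changing the lysines alters the response was asked of the difference between the 3 mutant lines and WT. No gene of the set passed an adjusted p of 0.05, beside 0.163% of all genes, and DESeq2 and limma-voom called 0 as well. At an unadjusted p under 0.05, 3 were more negative in the mutant lines (3.47% of all genes) and 4 more positive (3.62% of all genes). WT is 1 line here, so a trait of that line and the mutations cannot be told apart.

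The more positive genes were ZNF260, ZNF623, ZNF518B and ZNF638. ZNF260 measured 18.9 CPM with Veh and 17.0 with Dox for WT, 19.2 and 28.3 for K450R, 19.9 and 26.04 for K451R and 21.7 and 31.6 for K450RK451R. Veh levels were alike, and only WT did not gain. The difference was 0.65 ± 0.25 on the log2 scale, with an unadjusted p of 0.0133 and an adjusted p of 0.557 by edgeR. ZNF623 behaved alike, at 19.7 and 18.4 CPM for WT, 17.3 and 25.9 for K450R, 21.8 and 27.6 for K451R and 18.5 and 28.0 for K450RK451R (difference 0.61 ± 0.25). ZNF518B, known to bind EHMT2, measured 38.9 and 34.0 CPM for WT, 38.4 and 46.0 for K450R, 44.3 and 45.3 for K451R and 34.9 and 50.1 for K450RK451R (difference 0.47 ± 0.20), with larger steps in K450RK451R and K450R than in K451R. For ZNF638 the difference was 0.45 ± 0.20.

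The more negative genes were ZNF592, ZNF106 and ZNF217. ZNF217, the CoREST and LSD1 partner, measured 272 CPM with Veh and 280 with Dox for WT, 235 and 211 for K450R, 244 and 205 for K451R and 230 and 190 for K450RK451R. It was lower with Dox in each mutant line and slightly higher in WT, a difference of -0.27 ± 0.12 with an adjusted p of 0.637 by edgeR. ZNF592 measured 82.2 and 86.6 CPM for WT, 90.6 and 69.8 for K450R, 78.3 and 70.6 for K451R and 92.2 and 72.6 for K450RK451R (difference -0.37 ± 0.15). For ZNF106 the difference was -0.33 ± 0.13, from 0.20 in WT and -0.16, -0.03 and -0.17 in the mutant lines.

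Of the role lists, 1 of 16 corepressor partners was higher with Dox (ZNF512B, 0.35) and 2 lower (ZNF592 and ZNF217), and 1 of 6 genes for retrotransposons or imprinting was higher (ZNF445, 0.22). None of the 10 genes for RNA or ribosomes passed, and of the 7 promoter factors only ZNF76 was lower (-0.28). Of the TRIM28 and HUSH list, 1 of 16 genes was higher with Dox and 3 were lower at an unadjusted p under 0.05, beside 6.86% and 7.55% of all genes. TRIM28 was at 0.12, and CHD4 (-0.17), CBX1 (-0.17) and CHD3 (-0.11) were lower. Nuclear transcripts also moved with Dox: MALAT1 measured 1679 to 2858 CPM with Veh and 845 to 1300 with Dox, and NEAT1 335 to 1122 and 177 to 268. Of the 6 such transcripts listed 5 fell at an adjusted p under 0.05 and 0 rose (median -0.59), beside 2.11% of all genes in either direction. Their part in the Dox results was not tested.

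Set side by side, ZNF395, ZNF740 and ZNF28 were the genes past an unadjusted p of 0.05 in both experiments. ZNF740 was lower with siEHMT1 (-0.37) and higher with Dox (0.19), ZNF28 was likewise lower (-0.52) and higher (0.22), and ZNF395 was lower in both (-0.39 and -0.17). ZNF28 measured 22.9 and 28.9 CPM with Veh and Dox for WT, 22.4 and 28.4 for K450R, 23.5 and 28.4 for K451R and 28.6 and 28.0 for K450RK451R, a gain in 3 of the 4 lines. By sign alone, 36 genes were lower with siEHMT1 and higher with Dox, 18 the reverse, 25 lower in both and 17 higher in both, and Spearman's rho between the responses was -0.17 over the 96 genes.

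The 466 numbered ZNF genes under 3000 counts are given beside the set. In siEHMT1, 56 of 354 tested (15.8%) were lower and 10 (2.82%) higher at an unadjusted p under 0.05, beside 5.09% and 4.46% of all genes, with a median of -0.06. Of the 220 with a GC content under 45%, 52 (23.6%) were lower and 3 (1.36%) higher, beside 8.13% and 3.04% of all genes under 45%. Of the 129 at or above it, 4 (3.10%) were lower and 7 (5.43%) higher, beside 3.23% and 5.37%. The part of base composition in these counts was not tested. With Dox, 52 of 346 tested (15.03%) were higher and 6 (1.73%) lower, beside 6.86% and 7.55% of all genes, with a median of 0.10, where the 96 genes had 12 higher and 8 lower. Whether the more highly counted genes differ from these in their response was not tested.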

How the data were processed

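Total RNA was sequenced from strand-marked libraries as 51-base single reads. Per the submitters' processing notes, the authors used FastQC 0.11.9, STAR 2.7.2 and featureCounts 1.6.4 on hg19, and deposited raw counts per gene. The annotation release and the strand setting of the counting are not given in the sources used here, so reads of antisense or overlapping genes may not be separated. Gene positions, exon GC content and coding sequences came from GENCODE release 44 on GRCh37, which matched 55538 of 57773 gene IDs, and start-site sequences from RefSeq (GRCh38.p14). The 2 columns of each stable-line condition were summed. The siRNA and stable-line tables were analysed separately.

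Deposited counts were filtered with filterByExpr, scaled by TMM and tested with the quasi-likelihood test of edgeR 4.0.16 (R 4.3.3) over all genes, with Benjamini-Hochberg adjustment. The 4-line fit held line and treatment as terms, and the mutant comparison their interaction. CPM are TMM-scaled, RPKM divide by exon length, and SE were derived from the fitted change and its test. In siRNA samples p-values measure the spread between samples that may be technical. The procedures were tested on simulated data. Members and gene lists were chosen with earlier results of these data known. Genes were named by rule: the 8 with the most counts, those past an unadjusted p of 0.05 without overlap or with 1 sign in all 4 lines (up to 10 in each direction per comparison), those past an adjusted p of 0.05, the 3 with the smallest p in each direction for mutants, those past 0.05 in both experiments, the role lists and the genes beside the count limit. Alternatives were DESeq2 1.42.0, limma-voom 3.58.1, other scaling, filters and count limits, a GC correction, a replicate block, leaving out each sample or line, and, chosen after seeing the data, the older quasi-likelihood method of edgeR. The motif CCAATCAG and the loosened KRAB pattern were also chosen after seeing the data. Results for some luminal markers are not reported here.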

Additional observations from a re-analysis of the deposited data

Results flagged for a closer look

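Among the 20 genes of the set past an unadjusted p of 0.05 over the 4 lines, 2 had 1 line far from the other 3. For ZNF146 the log2 Dox effect was -0.01 in K451R and 0.20 to 0.22 in WT, K450R and K450RK451R, so that the gap took 0.897 of the whole range. For ZNF28 it was -0.03 in K450RK451R and 0.27 to 0.33 in the others, a gap of 0.832 of the range. Chance alone marks about 1 in 20 such groups of 4, and each value rests on 1 summed sample per condition.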

How the results depend on the processing

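In siEHMT1, DESeq2 gave 6 lower and 0 higher genes at an unadjusted p under 0.05, where 526 of all 14532 genes tested passed. Upper-quartile scaling gave 3 higher and the GC correction 2. With 1500 counts as the limit (215 genes) 32 were lower, 2 higher and 1 past the adjusted p, and with 6000 (28 genes) 2 and 0 by direction. These limits leave the fit unchanged, with 5.09% of all genes lower, 4.46% higher and 0.131% past the adjusted p. Leaving out each siRNA sample gave medians of the set from -0.0859 to -0.0263. Fitting the replicate number as a block gave 3 higher genes and 2 past the adjusted p by edgeR (ZNF28, 0.0206, and ZNF678, 0.0448). Over all 14532 genes tested, 118 passed the adjusted p with the block and 19 without it. The deviations of same-numbered siRNA samples had a Pearson r of -0.005 over 14532 genes. MALAT1 and NEAT1 were higher in replicate 2 of both groups. Whether same-numbered samples share more than a number cannot be told here. With Dox, DESeq2 gave 6 higher genes, where 1120 of all 14105 genes tested passed the unadjusted p in either direction. A limit of 1500 gave 31 higher, 13 lower and 3 past the adjusted p, and 6000 gave 3, 4 and 0. The shares over all genes were 6.86%, 7.55% and 2.11%. Leaving out each line gave 4 to 8 lower genes and 0 to 5 past the adjusted p, where 114 to 501 of all genes tested passed it. With the columns as separate samples, with or without the replicate block, 23 were higher, 13 lower and 20 past the adjusted p. Of all 12673 genes tested, 2000 passed the adjusted p without the block and 1900 with it. At the unadjusted p, 3744 and 3647 passed. Columns that differ only by counting noise then count as replicates. For mutants against WT, DESeq2 gave 0 in both directions, where only 175 of all 14105 genes tested passed the unadjusted p. A limit of 6000 gave 1 more positive gene, beside 3.62% of all genes, and a median of -0.017. Values near 0 in siEHMT1 changed sign. These were ZNF217 with limma-voom (-0.0038), with the older edgeR method (-0.000692) and with the replicate block (-0.00101), ZNF384 with upper-quartile scaling (0.00243), and with the GC correction ZNF148 (0.0415), ZNF207 (0.0593) and ZNF335 (-0.012). Leaving out 1 sample moved ZNF106 from -0.231 to 0.0494, ZNF143 from -0.0933 to 0.197, ZNF148 from -0.229 to 0.137, ZNF207 from -0.0773 to 0.00306, ZNF217 from -0.0868 to 0.0837, ZNF335 from -0.079 to 0.148, ZNF445 from -0.206 to 0.119 and ZNF451 from -0.285 to 0.00135. Apart from the columns as separate samples, the cause of these changes was not tested. siNTC replicate 2, at 5593400 counts, was the least deeply sequenced siRNA sample.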

Other observations

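The known zinc-finger partners of EHMT1, ZNF644 and WIZ, showed small differences. ZNF644 had a log2 fold change of -0.11 in siEHMT1 and 0.13 with Dox, and WIZ, a partner in the same complex, 0.05 and 0.115. The luminal prostate markers moved in both directions with Dox. Of the 10 listed, 5 were higher and 3 lower at an unadjusted p under 0.05, beside 6.86% and 7.55% of all genes. Among the higher ones, SLC45A3 (0.23), TMPRSS2 (0.22) and HOXB13 (0.19) passed an adjusted p of 0.05 by edgeR. In siEHMT1 TMPRSS2 was at 0.27, past an unadjusted p of 0.05 but not an adjusted one.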
